A study of Homo sapiens with 2 samples.

Results

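The CREB and ATF genes described here are CREB5 and 9 relatives, CREB1, CREM, ATF1, ATF2, ATF3, ATF7, CREB3, CREB3L1 and CREB3L2. Their pan-Kcr peaks in crotonate-treated T98G cells were taken from the deposited peak list as those whose assigned gene, or whose annotation text, was a member. These were 11 of 10041 peaks, with 8 at CREB5 and 1 each at ATF1, CREB3L1 and CREB3L2. CREB5 was chosen by its number of peaks, 2 of them at promoters, so its count and its promoter share are given as descriptions without a test. T98G, an established cell line from a human glioblastoma, received crotonate, a precursor of crotonyl-CoA, for 48 h at the 10 µM stated in the deposited design. Chromatin was precipitated with an antibody that recognises crotonylated lysine in any protein (pan-Kcr) to give 1 ChIP library, and 1 input library was made without precipitation. Control cells were not analysed here, so every value below describes crotonate-treated cells alone, with no spread between replicates and no comparison with untreated cells.

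Proteins of this family carry a basic leucine zipper, a helix that pairs with a partner and grips DNA at the cAMP response element, TGACGTCA. CREB1, CREM and ATF1 are activated by phosphorylation downstream of cAMP and calcium and then recruit the acetyltransferases CREBBP and EP300, which can also add crotonyl groups to histones. CREB5, ATF2 and ATF7 form a separate branch that can pair with JUN, with ATF2 and ATF7 phosphorylated by stress kinases. ATF3 is a stress-induced member that can repress transcription, and CREB3, CREB3L1 and CREB3L2 are held in the endoplasmic reticulum membrane until proteolysis releases them. Histone crotonylation is a mark of active promoters and enhancers in many cell types.

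The height of a peak is given as the deposited fold enrichment over background at its summit. The number of ChIP fragments at each summit and the background were recovered from the deposited fold enrichment and p, as (fragments + 1)/(background + 1) and a Poisson probability, and over all peaks the p returned by this reconstruction was within 6.5e-05 of the deposited one on the −log10 scale. Of the 11 peaks, 10 rested on 2 fragments and 1 on 3 fragments. Over the whole list 74.2% of the peaks held 2 fragments, the median fold enrichment was 2.73, and no peak had a q under 0.05. With so few fragments each peak carries a wide counting error. Among the 11 peaks the smallest q was 0.831 and the other 10 had a q of 1.

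At CREB5, on chromosome 7, the 8 peaks were scattered over 395.7 kb from 28433324 to 28828993, in the coordinates of the deposited list. Of these, 2 were annotated as promoter, 5 as intron and 1 as distal intergenic. The promoter share of 25.0% (exact 95% interval 3.19 to 65.1%) stood beside 21.4% over all peaks, and the interval covers counting error only. CREB5 was chosen with these promoter peaks in view and peaks of 1 gene are not replicates, so the interval does not test the share. The peak furthest upstream, from 28433324 to 28433659, ended 1956 bp before the start of ENST00000396300, a protein-coding CREB5 transcript. It had a fold enrichment of 2.58 with 2 fragments over a background of 0.162 fragments per base (deposited −log10 p of 3.20). The other promoter peak, from 28570145 to 28570511, was the tallest of the 11, at 3.62-fold with 3 fragments over a background of 0.106 (deposited −log10 p of 5.31). It overlapped the start of ENST00000461921, and its summit lay 165 bp before that start. This transcript is annotated as a processed transcript without a coding sequence, and both starts lay inside the RefSeq span of CREB5. So the promoter peak nearest to a start belonged to a noncoding transcript, and the one near the start of a coding transcript was among the lower peaks of the gene. By fold enrichment, 89.6% of all peaks were at or below the taller promoter peak and 22.3% at or below the other.

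**Figure D1:**
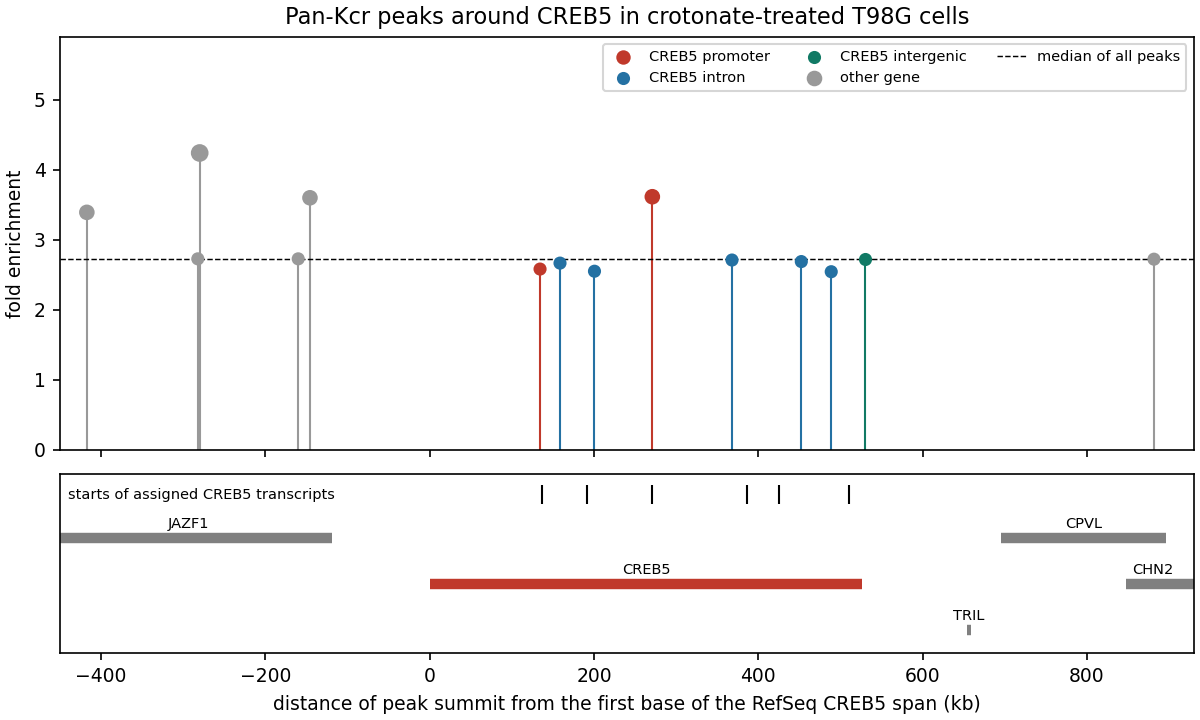
Fold enrichment (vertical axis) of each peak against the distance of its summit from the first base of the RefSeq CREB5 span in kb (horizontal axis), with point size growing with the number of fragments. Bars in the lower panel are gene spans and ticks are the starts of CREB5 transcripts to which peaks were assigned; 1 CREB5 peak at 3.62 stands above the dashed median of all peaks, and the first 134.0 kb of the gene hold none.

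The other CREB5 peaks lay in introns of ENST00000396299 and past the end of the gene. In intron 1 of 9, a peak from 28457826 to 28458105 had a fold enrichment of 2.67. In intron 2, a peak from 28499674 to 28500051 had 2.55. In intron 4, a peak from 28666920 to 28667294 had 2.71. These peaks all held 2 fragments, and none lay within 3 kb of an annotated start. Intron 6 held a pair of peaks, from 28751540 to 28751962 at 2.69-fold and from 28787782 to 28788200 at 2.54-fold, the latter the lowest of the gene. The last peak, from 28828729 to 28828993 at 2.73-fold, began 2.84 kb past the end of the RefSeq span and was assigned to CREB5 as the nearest gene. The CREB5 peaks were therefore alike in height except for the noncoding promoter peak. Their median fold enrichment was 2.68 (range 2.54 to 3.62), against 2.73 over all peaks.

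Peak length at CREB5 ran from 265 to 423 bp (median 371 bp), and 6 of the 8 were longer than the median of 315 bp over all peaks. The gaps between neighbouring CREB5 peaks ran from 24.2 to 96.4 kb with a median of 41.6 kb. Before the first peak there was a gap of 279.6 kb, and the first 134.0 kb of the RefSeq gene held no peak. After the last peak the next one followed at 351.8 kb. Peaks thus lay scattered in the central and downstream part of the gene, with wide empty stretches on either side. No pair of peaks lay within 1 kb, so none of the count came from a split peak.

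The recovered background was above the lowest value of the list in 7 of the 8 CREB5 peaks, compared with 63.6% of all peaks and 70.2% of the peaks on chromosome 7. The lowest background, 0.0999, is the same at every peak that has it. At CREB5 the values ran from 0.0999 at the intergenic peak to 0.179 at the last intronic peak, with a mean of 0.134. The mean over chromosome 7 was 0.147 and over all peaks 0.139. Since 7 of the peaks had the same 2 fragments, their order by height is the reverse of their order by background. A background above the lowest was thus also more frequent on chromosome 7 as a whole, and its part in the number of CREB5 peaks was not tested.

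**Figure D2:**
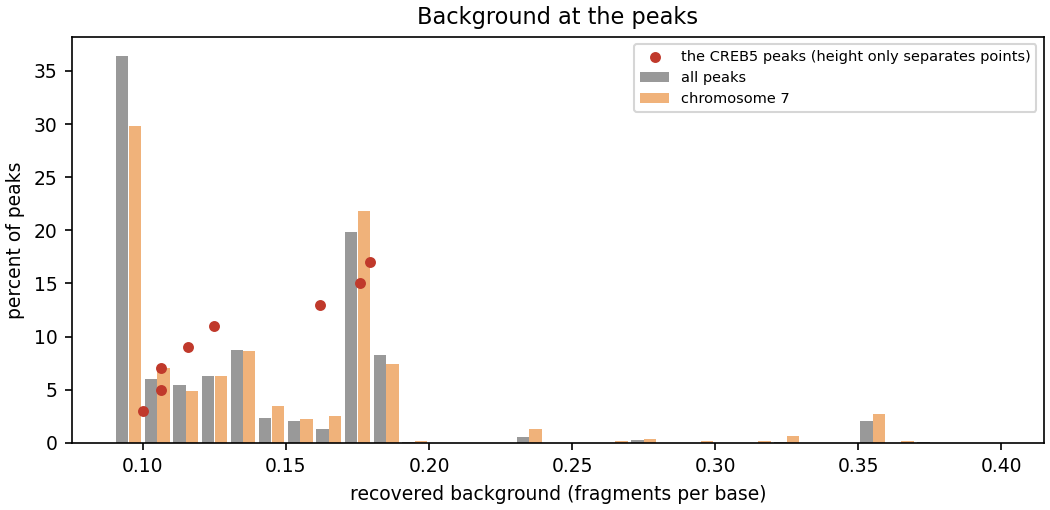
Percent of peaks (vertical axis) by recovered background in fragments per base (horizontal axis) for all 10041 peaks and for the 637 peaks of chromosome 7, with 0.12% and 0.314% of peaks at or above 0.4 not drawn. Red points are the 8 CREB5 peaks, whose height has no meaning; they run from 0.0999 to 0.179.

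No peak overlapped any of the 23 RefSeq upstream windows (the 250 bases before an annotated start, GRCh38.p14) of the 9 members that have such a window. ATF2 had none in the table. Over all protein-coding genes 0.27% of 22183 windows were overlapped by a peak, a share too small to set 0 of 23 apart. Upstream windows of 4 starts are shown, at CREB5 because they are the closest to its peaks among its 3 windows, and at CREB3L2 and CREM because they hold the complete response element. Capitals mark TGACGTCA, the shorter site TGACG, which lies within it, and the AP-1 site TGACTCA, each searched on both strands. The windows are chr7:28435365-28435614 and chr7:28685883-28686132 for CREB5 (plus strand), chr7:138002087-138002336 for CREB3L2 (minus strand) and chr10:35195652-35195901 for CREM (plus strand), all 5′ to 3′.
CREB5 start near the upstream peak: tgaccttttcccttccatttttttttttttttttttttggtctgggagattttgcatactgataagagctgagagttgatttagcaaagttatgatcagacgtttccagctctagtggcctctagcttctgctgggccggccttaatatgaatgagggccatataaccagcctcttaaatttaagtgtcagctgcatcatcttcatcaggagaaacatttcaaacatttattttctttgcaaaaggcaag
CREB5 start after intron 4 peak: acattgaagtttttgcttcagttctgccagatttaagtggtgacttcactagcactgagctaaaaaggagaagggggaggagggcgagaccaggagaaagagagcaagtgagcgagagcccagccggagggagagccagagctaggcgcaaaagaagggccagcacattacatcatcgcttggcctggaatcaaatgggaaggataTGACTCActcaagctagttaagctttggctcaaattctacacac
CREB3L2: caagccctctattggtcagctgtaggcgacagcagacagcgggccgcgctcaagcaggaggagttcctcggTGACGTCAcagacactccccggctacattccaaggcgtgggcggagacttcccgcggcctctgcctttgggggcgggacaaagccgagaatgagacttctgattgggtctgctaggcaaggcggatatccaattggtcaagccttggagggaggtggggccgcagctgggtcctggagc
CREM: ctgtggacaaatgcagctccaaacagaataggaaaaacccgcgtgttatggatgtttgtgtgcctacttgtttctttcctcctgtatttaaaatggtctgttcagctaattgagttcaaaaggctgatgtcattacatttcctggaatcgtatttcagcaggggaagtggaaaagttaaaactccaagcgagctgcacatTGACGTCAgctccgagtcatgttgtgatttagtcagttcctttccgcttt

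The middle of the 3 CREB5 windows began 1.71 kb after the end of the upstream promoter peak, and it held none of the 3 motifs searched. The last CREB5 window lay 18.6 kb after the peak of intron 4. It held TGACTCA, beginning 44 bases before the start, as did 3.44% of all windows on either strand. The complete response element was found in 2 of the 23 windows, beginning 179 bases before the CREB3L2 start and 50 bases before the CREM start, and in 2.02% of all windows. The shorter site was found in 5 of the 23, at CREM, CREB3L2, ATF7 and CREB3, these including both windows with the complete element, against 24.2% of all windows. A match describes letters only and not binding. The 3 CREB5 windows were 38.4 to 49.6% G and C, and 21.2% of all windows were at or below the higher value. The 20 windows of the other members ran from 36.0 to 77.6% with a median of 64.0%, beside 62.0% over all windows. CREB5 windows were thus in the lower part of the range, with windows of CREM, ATF3 and CREB3L2 among them. The sequence of the peaks themselves was not analysed here.

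Of the relatives, the membrane-bound members CREB3L1 and CREB3L2 each had an intronic peak. CREB3L1, which promotes collagen production in mouse bone, had a peak in intron 2 of 11 on chromosome 11 from 46302983 to 46303342, 7572 bp before the start of a retained-intron transcript. It had a fold enrichment of 2.63 with 2 fragments. A pair of taller peaks lay nearby but was assigned to LINC02489, a long noncoding RNA gene, the closer of them 15.1 kb from the CREB3L1 span at 3.53-fold. CREB3L2, which promotes secretion in mouse cartilage, had a peak in intron 1 of 11 on chromosome 7 from 137994436 to 137994827, with a fold enrichment of 2.71 and 2 fragments. It was isolated, with 801.0 kb to the peak before it and 821.9 kb to the peak after it. CREB3, a short gene of 4.3 kb on chromosome 9, had no peak, and the nearest lay 134.3 kb away.

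Among the cAMP-responsive members, only ATF1 had a peak in this list. It lay in intron 3 of 4 of ATF1 on chromosome 12 from 50797095 to 50797481, with a fold enrichment of 2.73 and 2 fragments. The list assigned it to AC013244.2, a processed pseudogene inside ATF1, so it counts for ATF1 by annotation text and position. CREB1, the founding activator of the family, had no peak within 228.8 kb. The nearest peak was assigned to PLEKHM3. CREM, which also encodes the repressor ICER from its internal start, had none within 279.7 kb, where the nearest was assigned to CCNY.

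In the branch of CREB5, its closest relatives ATF2 and ATF7 had no peak. The nearest to ATF2 was 120.8 kb away and assigned to CHN1, at 3.46-fold with 3 fragments. ATF7 lay in the emptiest stretch of the family, with 2613.3 kb free of peaks around it. ATF3, the stress-induced member, had none either, but an intergenic peak of 2.54-fold assigned to AL590648.2 lay 12.9 kb past the gene. The 3 genes of this branch thus ran from 8 assigned peaks to 0, and the 2 with none were 95.9 and 118.5 kb long against 526.6 kb for CREB5.

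**Figure D3:**
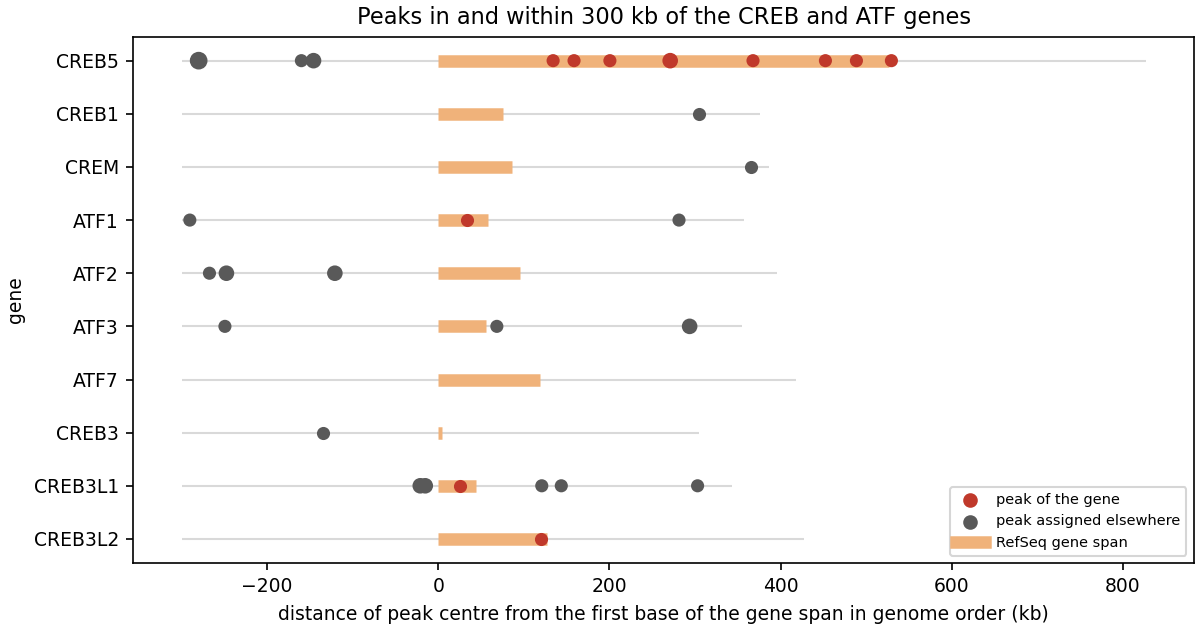
Position of peaks (points, sized by fragments) along each gene span and 300 kb on either side, in kb from the first base of the span in genome order (horizontal axis), for the 10 genes (vertical axis). Red points are peaks of the gene and grey points are peaks assigned elsewhere; CREB5 holds 7 within its span and 1 just past it, ATF1, CREB3L1 and CREB3L2 hold 1 each, and the other 6 hold none.

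In all, 4 of the 10 members had a peak by assignment or annotation text and 3 by assignment alone. Over 20037 protein-coding genes, 17.0% were assigned a peak and 17.0% held the centre of a peak in their span. A promoter peak was found at 1 of the 10, CREB5, beside 5.92% of all protein-coding genes, and genes with 2 or more promoter peaks made up 0.374%. Because CREB5 was chosen for its peaks, its part in these counts was set by the choice. Of the 9 others, ATF1, CREB3L1 and CREB3L2 had a peak and none had a promoter peak. The members are long, with a median span of 81.1 kb against 24.1 kb over all protein-coding genes, and long genes hold more peaks. CREB5 made up 44.2% of the summed length of the 10 genes and held 7 of the 10 peaks with their centre in a member's span.

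**Figure D4:**
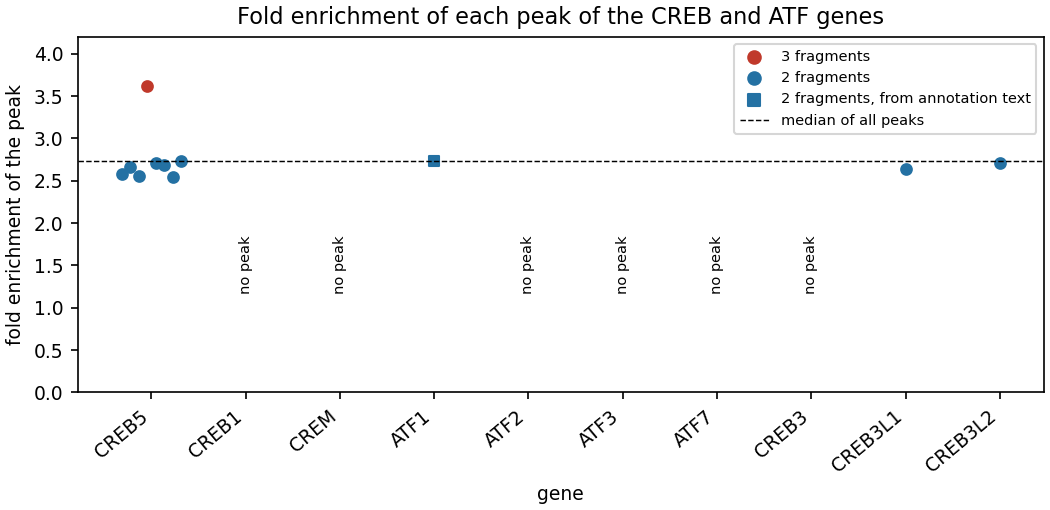
Fold enrichment (vertical axis) of each peak of the 10 genes (horizontal axis), with colour for the number of fragments and a square for the ATF1 peak taken from annotation text. The dashed line is the median of all peaks, 2.73; the CREB5 peak with 3 fragments, at 3.62, is alone above it, and the other peaks lie at or below it.

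Per length, CREB5 held 1.33 peaks per 100 kb of its span (exact Poisson 95% interval 0.534 to 2.74, counting error only). At the average of chromosome 7, 4.03 peaks per Mb between its first and last peak, a gene of this length would hold 2.12 peaks, and CREB5 held 7. Because CREB5 was chosen for its number of peaks, this difference is a description and was not tested. The 9 other members together held 3 peaks over 664.9 kb, or 0.451 per 100 kb (exact Poisson 95% interval 0.0931 to 1.32), where their chromosomes' averages would give 2.35. The spans of all protein-coding genes held 0.385 peaks per 100 kb, and those of chromosome 7 held 0.42. With a −log10 p of 4 or more, with 3 or more fragments or among peaks whose height reached the median of the list, 1 of the 7 peaks in the CREB5 span was left and its rate was 0.19 per 100 kb. Under the same limits all protein-coding spans held 0.0927, 0.101 and 0.206 per 100 kb. At 1 peak each, CREB3L1 had 2.29 per 100 kb, ATF1 1.73 and CREB3L2 0.787, with intervals too wide to order them.

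Genes most like CREB5 in this library, by the number of assigned peaks, were the 7 protein-coding genes with 7 or more, CREB5 among them, which are 0.0349% of all. They were taken for these counts, so their rates are descriptions and were not tested. FHIT, which spans a fragile site, had 10 peaks and 0.665 per 100 kb of span. NTRK3, a neurotrophin receptor, and IQSEC1, an ARF exchange factor, had 7 peaks each and rates of 1.76 and 1.81 (exact Poisson 95% intervals 0.709 to 3.63 and 0.729 to 3.73). RIMS2, a synaptic vesicle release protein, had 1.06, TENM4, a teneurin, 0.761, and CTNND2, a delta catenin, 0.429. CREB5 alone of the 7 had 2 promoter peaks, a number for which it was chosen. IQSEC1, NTRK3, RIMS2 and TENM4 had 1 and FHIT and CTNND2 had none. CREB5 and FHIT had the same median fold enrichment of 2.68. The tallest peak reached 4.54 at FHIT, 4.24 at NTRK3, 3.64 at IQSEC1 and 3.63 at CTNND2, all above the 3.62 of CREB5, and 2.73 at RIMS2 and TENM4. Counting span centres alone, 26 protein-coding genes held 7 or more, 21 of them among the 281 genes at least as long as CREB5, which had a median of 2.

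**Figure D5:**
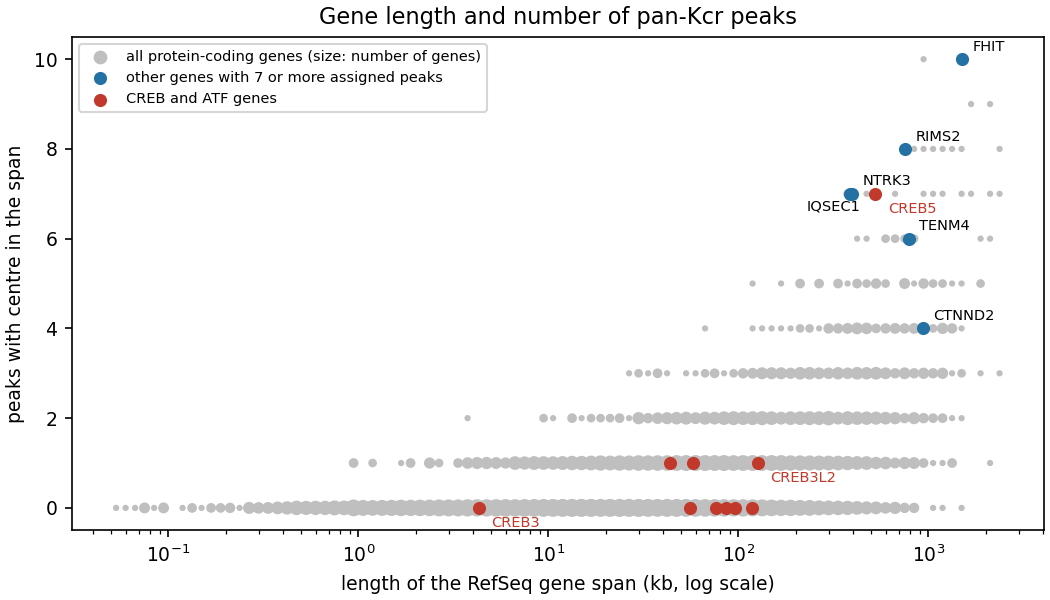
Number of peaks with their centre in the gene span (vertical axis) against span length in kb on a log scale (horizontal axis) for all protein-coding genes, in grey with size for the number of genes at that place. Red points are the 10 CREB and ATF genes and blue points are the other genes with 7 or more assigned peaks; CREB5, with 7 over 526.6 kb, stands beside NTRK3 and IQSEC1, while the other members hold 0 or 1.

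The peak next to CREB5 on the upstream side was assigned to JAZF1-AS1, at 3.60-fold with 3 fragments, and that on the downstream side to AC004593.1, at 2.72-fold. The protein-coding genes around these peaks were named after their values were seen. JAZF1, a zinc finger gene of 350.2 kb, held 5 peaks in its span, or 1.43 per 100 kb (exact Poisson 95% interval 0.464 to 3.33). Its tallest, at 4.24-fold with 4 fragments, was a promoter peak and was above every CREB5 peak. Of the 5 peaks 2 were assigned to JAZF1 and the others to AC004549.1, RNU6-979P and JAZF1-AS1. On the downstream side, the AC004593.1 peak lay in the overlapping spans of CPVL, a carboxypeptidase gene of 200.8 kb with 1 peak, and CHN2, a chimaerin gene of 367.7 kb with 2 peaks.

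Genes that act with the family were counted in 8 lists, and 13 of their 140 distinct genes, or 9.29%, had a promoter peak, beside 5.92% of all protein-coding genes. Gene length was not matched. The median length of a list ran from 7.8 to 330.8 kb, against 24.1 kb over all protein-coding genes. Of 12 other CREB, ATF and related leucine zipper genes, 1 had a promoter peak, CREB3L3, a liver and intestinal factor, at 2.54-fold with 2 fragments. Of 14 AP-1 partners, basic leucine zipper genes whose proteins can pair with ATF proteins, none had a promoter peak. No JUN or FOS gene was assigned a peak.

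Of 9 coactivator genes, 3, or 33.3%, had a promoter peak, beside 5.92% of all protein-coding genes. The 9 genes had a median length of 91.1 kb against 24.1 kb over all, and the shares were not tested. CRTC1, a cAMP-regulated coactivator of CREB1, had its promoter peak at 3.64-fold with 3 fragments, on chromosome 19 from 18735465 to 18735771, overlapping the start of a protein-coding transcript. ATF7IP, a partner of ATF7 in gene silencing, had its own at 3.25-fold with 3 fragments, at such a start too. It lay on chromosome 12 from 14408388 to 14408645. The other CRTC1 peak, in intron 1 from 18700201 to 18700487, lay 16521 bp after a different annotated start. CRTC1 thus has more starts than that under its promoter peak. EP300, the acetyltransferase, had a 2.73-fold promoter peak of 2 fragments, 2256 bp before a retained-intron transcript, and its relative CREBBP was assigned no peak. The starts at CRTC1 and ATF7IP thus belonged to coding transcripts. Promoter peaks of the other lists lay at both kinds of start, with processed transcripts at PDE4B and PDE10A and coding transcripts at EGR1 and ARC. A noncoding start was therefore not particular to the taller CREB5 promoter peak.

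Of 39 kinase and phosphatase genes that act on CREB and ATF proteins, 2, or 5.13%, had a promoter peak, beside 5.92% of all protein-coding genes. CAMK1, a calcium-dependent kinase, had a pair, at 3.39-fold and 2.71-fold, and SIK3, a kinase that keeps CRTC proteins in the cytoplasm, had 1 at 2.63-fold. The genes of these enzymes held 0.188 peaks per 100 kb (exact Poisson 95% interval 0.0903 to 0.346), beside 0.385 over all protein-coding genes. By share, 17.9% of the 39 were assigned a peak, close to the 17.0% of all protein-coding genes. Of 10 adenylyl cyclases, which make cAMP, ADCY8 had a promoter peak at 2.94-fold and ADCY2 at 2.54-fold, or 20.0% of the list. Of 16 cAMP phosphodiesterase genes, which degrade it, 12, or 75.0%, had a peak, beside 17.0% of all protein-coding genes. A promoter peak was found at 3, or 18.8%, beside 5.92% of all protein-coding genes. They were PDE4B at 4.24-fold with 4 fragments, PDE10A at 3.63-fold and PDE2A at 2.54-fold. The 16 genes have a median length of 330.8 kb, and per 100 kb they held 0.372 peaks (interval 0.239 to 0.554), beside the same 0.385.

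Of 26 genes known as targets of CREB, 2, or 7.69%, had a promoter peak, close to the 5.92% of all protein-coding genes. Both are immediate early genes of neuronal activity. EGR1, a zinc finger factor, had its peak at 3.64-fold with 3 fragments on chromosome 5 from 138466995 to 138467449, 1516 bp after a start. ARC, a synaptic protein, had 1 at 3.38-fold with 3 fragments, 2346 bp before a start. Of 17 genes of the ATF4 and unfolded protein stress response, 0 had a promoter peak and 4 had a peak elsewhere, all of 2 fragments. Those 4 were 23.5% of the list, beside 17.0% of all protein-coding genes with an assigned peak. These lists were chosen with earlier results of this peak list known, and their counts are descriptions of 1 library.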

How the data were processed

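Crotonate-treated T98G cells were profiled by pan-Kcr ChIP-seq, with 1 ChIP library and 1 input library grouped by their labels. The authors deposited 1 peak list, with fold enrichment as a ratio, −log10 p-value and −log10 q-value per peak, peak length, summit, class and assigned gene. The aligner, caller, threshold and build were not given in the sources used here. Of 4543 peaks assigned to a RefSeq protein-coding gene, 96.1% had their transcript within the GRCh38.p14 span of that gene, with 5 kb allowed, so RefSeq spans and upstream windows of that assembly were used. Promoters are those of the deposited annotation, within 3 kb of a start. Fragments and backgrounds were recovered from the deposited values. The recovery was also run on values simulated from the same formula. That run checks the inversion and not whether the deposited values follow the formula. No sequencing depth is given in the list. The members and gene lists were chosen with earlier results of these data known. All 10 members were named. Of each list up to 4 genes with the highest promoter peak were named, and the genes most like CREB5 were those with 7 or more assigned peaks. With 1 ChIP library no test was made. Count intervals are exact Poisson and shares exact binomial, at 95%, for counting error only. Alternatives were stricter or merged peaks, other gene assignments, promoter windows of 1 and 5 kb and leaving out chromosome Y. Values were computed with pandas 2.3.3, scipy 1.17.1 and numpy 2.4.6 in Python 3.11.15 and drawn with matplotlib 3.10.9.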

Additional observations from a re-analysis of the deposited data

How the results depend on the processing

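Most CREB5 peaks rest on 2 fragments, and stricter limits removed them. With a −log10 p of 4 or more, and likewise with 3 or more fragments, CREB5 kept 1 peak, 1 promoter peak, 0.19 peaks per 100 kb and a median fold enrichment of 3.62, and 1 member had a peak. Keeping peaks whose fold enrichment reached the median, CREB5 had 2 peaks, 1 promoter peak, 0.19 per 100 kb and a median of 3.17, and 2 members had a peak. This filter drops peaks of 2 fragments above the lowest background, by its construction. The −log10 p limit of 4 drops every peak of 2 fragments, which reach 3.81 at the lowest background. It is thus close to the limit of 3 fragments, and over the whole list they kept 2364 and 2587 peaks. A promoter window of 1 kb left 1 promoter peak at CREB5. Genes of the 8 lists with a promoter peak numbered 7 at a −log10 p of 4, 8 with 3 or more fragments, 6 with a 1 kb window and 20 with a 5 kb window, against 13. The shares of all protein-coding genes under these settings are not given here, so these counts and the member counts have no baseline. Of 51 recomputed values 31 stayed within 1.5 times, or within 1 SD of the CREB5 peaks for the median, among them those for merged peaks, gene assignment and leaving out chromosome Y. The count of members with a promoter peak was 1 under each setting, and this was CREB5, which was chosen for its promoter peaks. None of the 9 other members had a promoter peak under any setting. No paired analysis was possible because no group had a second library. Counting error limits every peak height.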
